A study of Mus musculus with 4 samples.

Results

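Fatty acid oxidation genes were followed in embryonic kidneys of C57BL/6 mice taken at day 15 of gestation (E15). The genes are the 43 enzymes, carriers and binding proteins of a list that runs from fatty acid uptake to the mitochondrial and peroxisomal oxidation steps, and each was read from its brightest probe set among those that the platform annotation gives exactly 1 gene symbol. Of the 43, 42 had such a probe set, among 18193 genes with one on the array, and Acsl1 was not analysed here. The iron-deficient group was carried by dams on a synthetic diet with about 2 to 6 ppm iron, and the control group by dams on a diet with 220 ppm iron. Dams were 8-week-old C57BL/6 females when divided into groups, and diets began 3 weeks before gestation and continued through it, with C57BL/6 males as sires. Each diet had 2 pools of 16 kidneys and each pool had 1 Affymetrix whole-genome expression array. Single embryos were thus averaged within a pool, which reduces the differences between them but does not remove them. The labels do not say whether pools came from separate litters, so the p-values below reflect pool-to-pool spread alone, part of which may be technical.

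Fatty acids enter cells with the help of transport and binding proteins and are turned into acyl-CoA thioesters by acyl-CoA synthetases. Long chains cross the inner mitochondrial membrane on carnitine and are then shortened in a repeating spiral of dehydrogenation, hydration, a second dehydrogenation and thiolysis, with electrons passing through the electron transfer flavoproteins to the respiratory chain. Peroxisomes run a related pathway for very long and branched chains and for dicarboxylic acids, in which hydrogen peroxide is formed and catalase breaks it down. In the adult kidney the proximal tubule is known as the segment that depends most on fatty acid oxidation. Catalase carries a haem group, and the protein encoded by Etfdh, which passes electrons from the flavoproteins to ubiquinone, an iron-sulfur cluster.

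A signal is the deposited intensity of a probe set in arbitrary units, with about the same trimmed mean on every array as deposited. Median signals were 40 and 34 in the iron-deficient pools and 42.5 and 31.5 in the control pools. Iron-deficient pool 1 differed most from the rest, with correlations of 0.883 to 0.913 to the other arrays across the tested probe sets, which are not independent replicates, against 0.978 between the control pools. A control probe set for 18S ribosomal RNA read 2144.5 in that pool and 243 to 291.9 in the other pools. All samples are labelled female, but the Y-linked gene Eif2s3y had signals of 253.6 and 20.8 in the iron-deficient pools, against 594.5 and 600 in the control pools. Xist, which is transcribed from the inactive X chromosome, ran the other way, at 3427.3 and 1543.3 in the iron-deficient pools, against 926.6 and 167.8 in the control pools. The signals of these sex-linked genes thus differed along with diet, and the part of sex in the results was not tested. Defining genes of the developing kidney were present. Of an 11-gene kidney list 10 were tested (Pax2 was not), and these, with Six2, Wt1, Ret and Foxd1 among them, were above background in all pools. Values of single pools are therefore given beside the differences between diets.

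Most members had lower signals in the iron-deficient pools, and the size depended on the pool. Of 37 members bright enough to be tested, 30 had a negative log2 difference (iron-deficient minus control) and 7 a positive one. Most of the array was negative too, with 15772 of all 27022 tested probe sets and 8050 of the brightest tested probe sets of 12992 genes. In 15 of the 37 each iron-deficient pool was below each control pool (called lower in both pools from here on), and in 3 each was above (higher in both). After median centring of the arrays these counts were 7 and 1, with Slc27a2, Fabp3, Acsm2, Acsm3, Crot, Acaa1b and Ehhadh lower and Slc27a1 higher. The shares over all probe sets after centring were not counted. Without centring, 25.0% of all 27022 tested probe sets lay lower in both and 11.8% higher in both. Among the brightest tested probe sets of 12992 genes these shares were 25.9% and 13.0%. The median log2 difference was -0.37 over the members and -0.10 over all tested probe sets. By limma 6 members were lower and 0 higher at an unadjusted p under 0.05, against 2.81% and 1.14% of all tested probe sets. No member passed the test adjusted over all probe sets, and neither did any other probe set (0%, smallest adjusted p = 0.289). In bulk tissue, fewer cells of a type and less RNA per cell cannot be told apart.

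**Figure D1:**
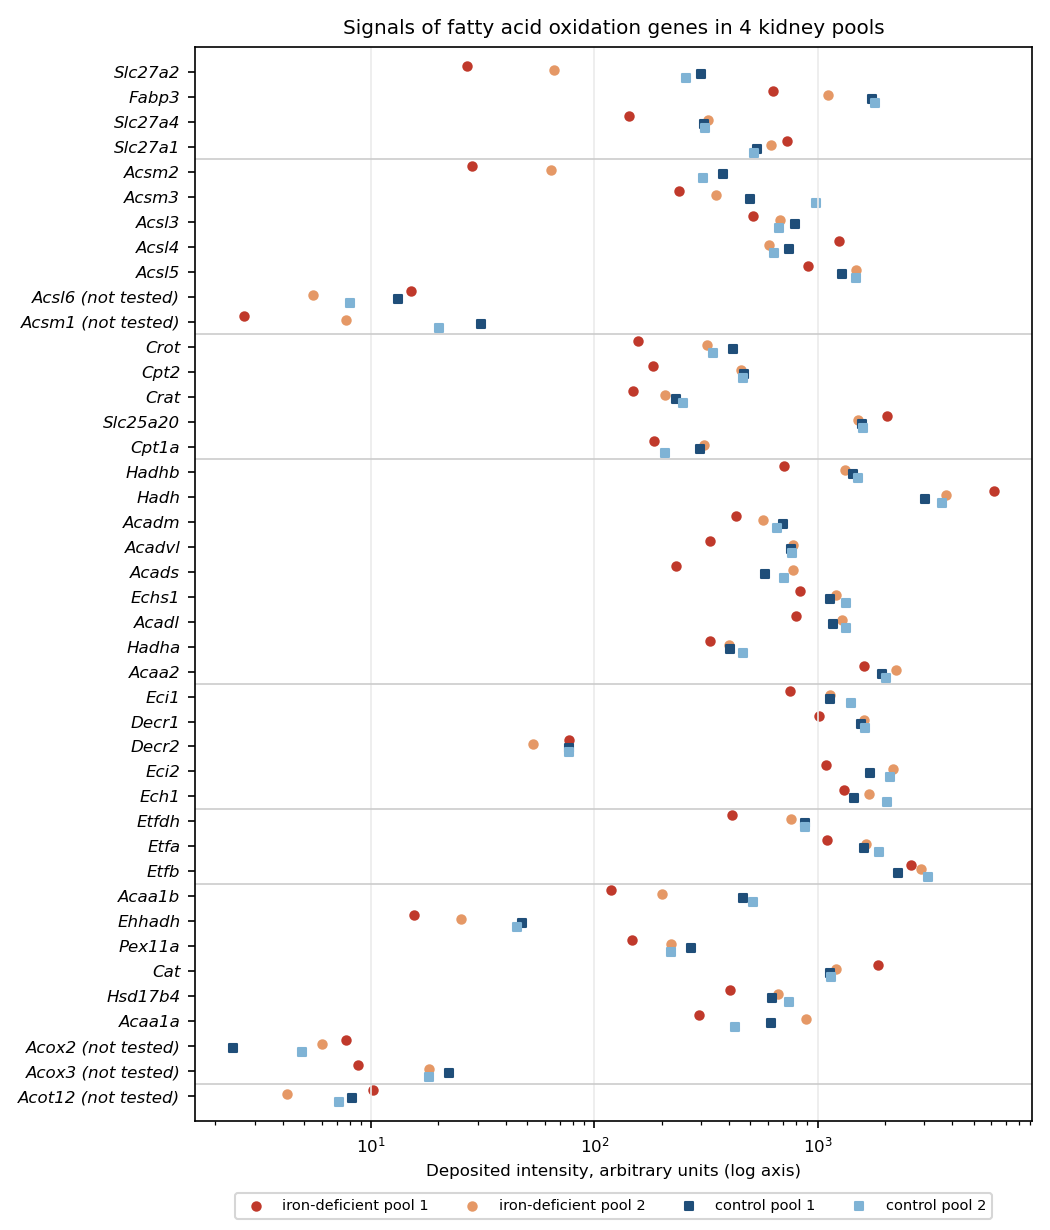
Deposited intensity on a log axis of the 42 analysed fatty acid oxidation genes in each of 4 kidney pools, in blocks by role (uptake, synthetases, carnitine shuttle, mitochondrial spiral, auxiliary enzymes, electron transfer, peroxisome, thioesterase). Red and orange circles are the iron-deficient pools and blue squares the control pools, and Slc27a2 and Acsm2 show the widest gap, with signals of 26.9 to 65.6 against 257.4 to 375.7.

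The 2 iron-deficient pools did not show the same picture. In iron-deficient pool 1, 31 of 37 members lay below both control pools and 5 above both, against 52.6% and 34.9% of all tested probe sets. In iron-deficient pool 2, 17 members lay below both control pools and 10 above both, against 40.5% and 31.3% of all tested probe sets, so that the shares of members in pool 2 were close to those of the whole array. Relative to the control mean, the median member differed by -0.70 on the log2 scale in pool 1 and by -0.06 in pool 2, where the medians of all tested probe sets were -0.18 and -0.03. Over the brightest tested probe set of each gene, which is how the members were read, the medians were -0.31 and 0.003, and 60.1% and 38.4% lay below both control pools. Pool 1 is also the pool with the lowest correlations and the high 18S signal, and their part in the result was not tested. The 6 members at an unadjusted p under 0.05 (Slc27a2, Fabp3, Acsm2, Acsm3, Acaa1b and Ehhadh) were below both control pools in each iron-deficient pool, a description that their p already fixes in part. Over the other 31 tested members the median difference was -0.65 in pool 1 and -0.03 in pool 2.

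**Figure D2:**
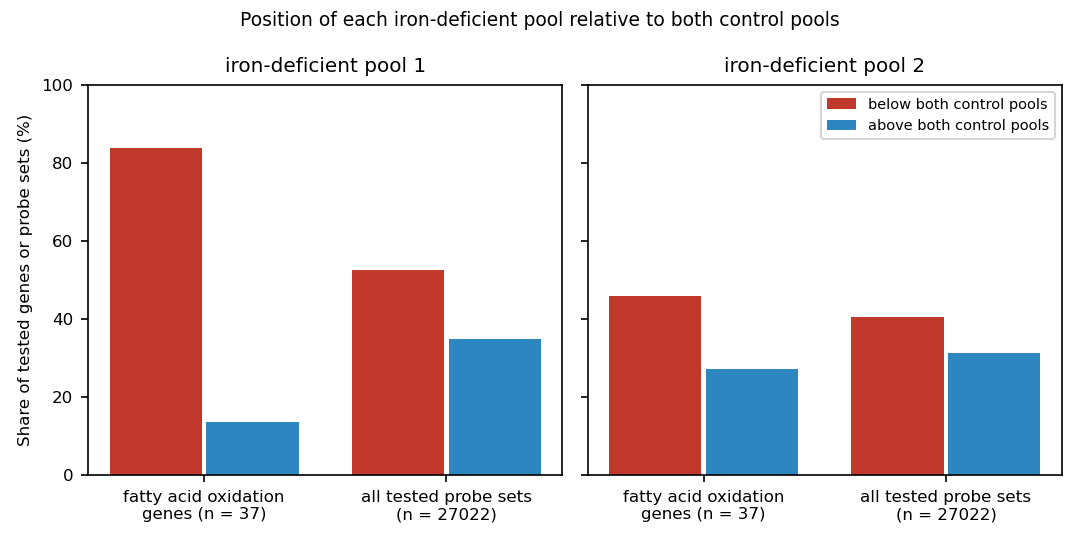
Share of the 37 tested fatty acid oxidation genes and of all 27022 tested probe sets that lay below (red) or above (blue) both control pools, in iron-deficient pool 1 (left) and pool 2 (right). In pool 1 the members' share below was 83.8%, and in pool 2 it was 45.9%.

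**Figure D3:**
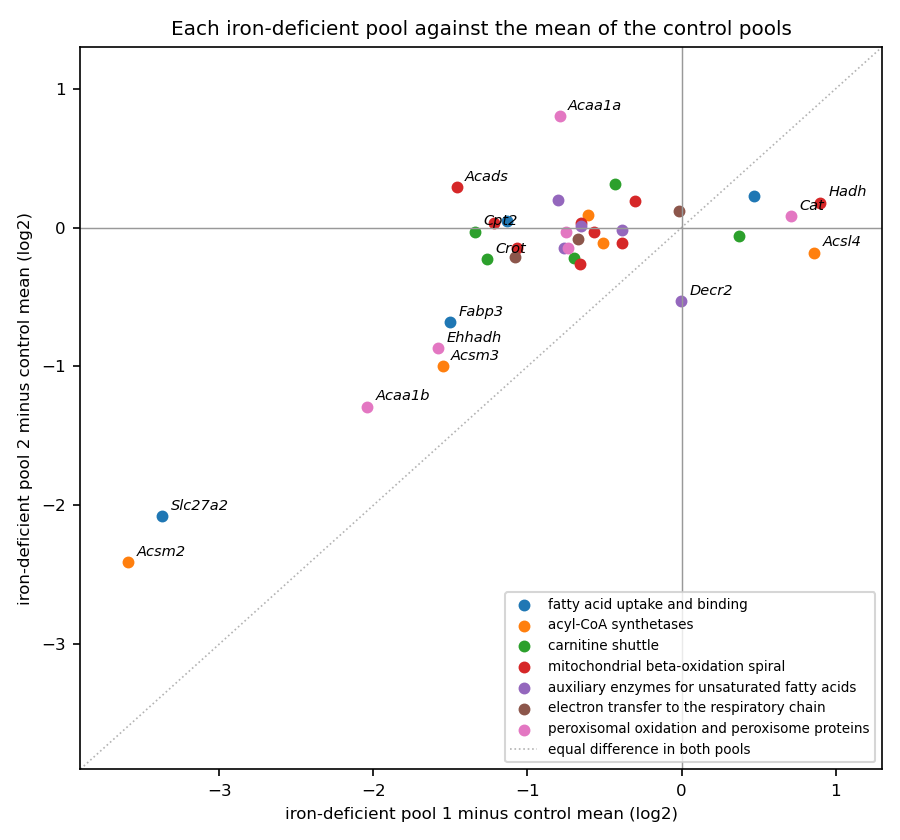
Log2 difference of each of the 37 tested genes from the control mean in iron-deficient pool 1 (horizontal) and in pool 2 (vertical), coloured by role, with a dotted line of equal difference. Acsm2 (-3.59 and -2.41) and Slc27a2 (-3.37 and -2.08) lie far below 0 on both axes, while most mitochondrial enzymes lie left of 0 but near 0 on the vertical axis.

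Uptake and binding proteins differed among themselves. Slc27a2 encodes a transport protein of the plasma membrane and peroxisome that also activates very long chains. It had signals of 26.9 and 65.6 in the iron-deficient pools, against 298.8 and 257.4 in the control pools. The groups lay far apart, with a fitted iron-deficient level of 15.1% of the control level, and the log2 difference was -2.72 ± 0.50 (SE, limma unadjusted p = 0.00211, adjusted p = 0.701). Fabp3, the heart-type fatty acid binding protein, read 632 and 1112 in the iron-deficient pools, against 1757.4 and 1814.2 in the control pools. Here too the groups were separate, with a difference of -1.09 ± 0.39 (limma unadjusted p = 0.0358, adjusted p = 0.852), or -0.68 without iron-deficient pool 1. Slc27a1, a transporter of muscle and fat, was higher in both pools, at 731.4 and 617 in iron-deficient pools against 533.5 and 521.2 in control pools (0.35 ± 0.32). Slc27a4, a related transporter of intestine and skin, overlapped, since 142.9 in pool 1 was low and 323.9 in pool 2 was above the controls.

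Among acyl-CoA synthetases the medium-chain family stood lower and the long-chain family did not separate. Acsm2, a mitochondrial medium-chain synthetase of kidney and liver, had signals of 28.3 and 63.8 in the iron-deficient pools, against 375.7 and 307.3 in the control pools. That is the largest difference of the list, -3.00 ± 0.48 (limma unadjusted p = 0.00106, adjusted p = 0.581). A dimmer tested Acsm2 probe set gave 22.3 and 24.4 in iron-deficient pools against 144.7 and 126.2 in control pools, a difference of -2.53 ± 0.32. Acsm3, of the same family, read 239.6 and 349.4 in the iron-deficient pools, against 499.5 and 979.3 in the control pools. The control pools were themselves unlike here, and the difference was -1.27 ± 0.46 (limma unadjusted p = 0.0346, adjusted p = 0.852), or -0.79 without control pool 2. Acsm1 was too dim to be tested and lay below background in both iron-deficient pools, at 2.7 and 7.7, against 31 and 20.2 in control pools, which makes it at least 1.81-fold lower by signals set to background. Acsm1 and Acsm2 are neighbours on chromosome 7 with 0 coding genes between them, and Acsm3 lies 3 coding genes further on. The long-chain synthetases Acsl3, Acsl4 and Acsl5 overlapped between diets, with differences of -0.31 ± 0.34, 0.34 ± 0.45 and -0.26 ± 0.38. A dim probe set of Acsl3 had separate groups, at 53.3 and 71.3 in iron-deficient pools against 72.8 and 87.6 in control pools (-0.37 ± 0.34), and Acsl6 was too dim to be tested, with signals of 5.5 to 15.1 over the pools.

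The 250 bases before the RefSeq start of the genes were searched on both strands, in GRCm38.p6, for letters of factors known to act on this pathway. These were a direct repeat of 2 copies of AGGTCA with 1 base between them and up to 2 mismatches (bound by PPAR-RXR dimers and HNF4A), TCAAGGTCA (oestrogen-related receptors), ACGTG (core of the hypoxia response element) and GTTAAT (part of the HNF1 site). Windows were held for 39 members. Only the first listed window of each gene was searched, though Acsm2 had 2 and Slc27a1 had 3. The direct repeat stood in 4 of 39, against 3.18% of 27025 genes, and TCAAGGTCA in 1, against 0.366%, a match of which the last 6 letters are the copy in the repeat. ACGTG stood in 2, against 16.6%, and GTTAAT in 3, against 6.52%. Of the 6 genes at an unadjusted p under 0.05, Slc27a2 held ACGTG and Acsm2 held GTTAAT on the opposite strand, while the other 4 held none of these letters in this window. The windows of Acsm2 and Slc27a2 are shown because these had the smallest p among members holding one of the searched letters. The match is in capitals and the last base is next to the start:
Acsm2, chr7:119554090-119554339, plus strand: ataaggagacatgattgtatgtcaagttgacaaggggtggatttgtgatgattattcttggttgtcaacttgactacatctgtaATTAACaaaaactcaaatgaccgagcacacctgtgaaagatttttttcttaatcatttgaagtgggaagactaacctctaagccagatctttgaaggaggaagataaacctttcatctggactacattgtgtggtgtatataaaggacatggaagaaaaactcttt
Slc27a2, chr2:126552774-126553023, plus strand: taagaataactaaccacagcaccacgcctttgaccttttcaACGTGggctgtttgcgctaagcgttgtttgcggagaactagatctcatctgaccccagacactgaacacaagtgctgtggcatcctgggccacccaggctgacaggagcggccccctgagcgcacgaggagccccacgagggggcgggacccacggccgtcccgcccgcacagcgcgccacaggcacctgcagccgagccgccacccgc

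Of 5 carnitine shuttle genes, 3 (Cpt2, Crat and Crot) lay lower in both pools. Taken singly, each iron-deficient pool had 4 genes below both control pools, though not the same 4. The median over the 5 genes was -0.70 in pool 1 and -0.06 in pool 2. Crot, which moves medium chains onto carnitine in peroxisomes, read 156.8 and 320.9 in the iron-deficient pools, against 415.8 and 340.4 in the control pools (-0.75 ± 0.45). Cpt2, which returns the acyl group to CoA inside mitochondria, read 182.9 and 453.6 in iron-deficient pools against 467.5 and 460.9 in control pools (-0.69 ± 0.50). Pool 2 lay just below the control pools for both genes, and without pool 1 the differences were -0.23 and -0.03. Crat, the acetyl transferase, also lay lower in both pools (-0.46 ± 0.34), and the carnitine-acylcarnitine carrier Slc25a20 overlapped (0.16 ± 0.33). Cpt1a, the malonyl-CoA-sensitive entry step, depended on the probe set. Its brightest one gave 184.5 and 309.5 in iron-deficient pools against 297.7 and 208.2 in control pools, with overlap (-0.06 ± 0.41, positive after quantile normalization), and a dimmer one gave 112.3 and 146.4 in iron-deficient pools against 266.6 and 237.7 in control pools, a difference of -0.97 ± 0.33.

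Enzymes of the mitochondrial spiral were abundant and close to the control pools in iron-deficient pool 2. Of 9 tested genes, 8 lay below both control pools in pool 1 and 3 in pool 2, while 1 and 4 lay above both. Hadhb, the thiolase subunit of the trifunctional protein, read 704.9 and 1327.4 in the iron-deficient pools, against 1443 and 1511.8 in the control pools (-0.61 ± 0.41), while its dimmer probe sets differed by -0.31 ± 0.42 and 0.54 ± 0.59. Hadha, the other subunit, differed by -0.25 ± 0.32 and was also lower in both pools, as was the medium-chain dehydrogenase Acadm (-0.46 ± 0.33). The other dehydrogenases, Acadvl for very long, Acadl for long and Acads for short chains, overlapped, with pool 1 at 328.5, 797.8 and 232.5, below both controls, and pool 2 at 777.9, 1285 and 779.9. The hydratase Echs1 (-0.30 ± 0.36) and the thiolase Acaa2 (-0.06 ± 0.34) overlapped too. Hadh, the short-chain hydroxyacyl-CoA dehydrogenase, was the exception that lay higher in both pools, at 6173.2 and 3748.4 in iron-deficient pools against 3045.4 and 3606 in control pools (0.54 ± 0.38), and dimmer probe sets of the gene gave 0.49 ± 0.34 and 0.42 ± 0.38. After quantile normalization its groups overlapped (0.12), as did those of Hadha.

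Of 5 genes that feed unsaturated chains into the spiral, Eci1, Decr1, Eci2 and Ech1 were lowest in iron-deficient pool 1 and Decr2 in pool 2. Eci1, an enoyl-CoA isomerase of mitochondria, read 748.8 and 1137.8 in the iron-deficient pools, against 1139.1 and 1404.9 in the control pools (-0.45 ± 0.37). The pools touched, with almost no gap between iron-deficient pool 2 and control pool 1. The dienoyl-CoA reductase Decr1 read 1018.6 and 1612.8 in iron-deficient pools against 1572.8 and 1633.8 in control pools (-0.32 ± 0.37), and without iron-deficient pool 1 the difference was 0.01. A dimmer Decr1 probe set was lower in both pools (-0.40 ± 0.32). Its peroxisomal counterpart Decr2 lay lower in both pools by a margin that was very small in pool 1 (76.8 and 53.2 in iron-deficient pools against 76.9 and 77.1 in control pools). Eci2, a further isomerase (-0.30 ± 0.44), and Ech1, the dienoyl-CoA isomerase (-0.21 ± 0.36), overlapped. In electron transfer, Etfdh read 414.2 and 761.4 in iron-deficient pools against 874 and 881.5 in control pools (-0.64 ± 0.41), below both controls in each pool. The flavoprotein subunits Etfa (1104.5 and 1656.9 in iron-deficient pools against 1620.5 and 1894.7 in control pools, -0.37 ± 0.36) and Etfb (0.05 ± 0.34) overlapped, and the sign of Etfb turned after quantile normalization.

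Among the tested peroxisomal genes Acaa1b and Ehhadh were lower in both iron-deficient pools, Cat was higher in both, and the others overlapped. Acaa1b, a peroxisomal thiolase, read 119.2 and 200.4 in the iron-deficient pools, against 463.5 and 516.1 in the control pools. Both iron-deficient signals lay well below both controls, with a difference of -1.66 ± 0.39 (limma unadjusted p = 0.00613, adjusted p = 0.852), or -1.29 without iron-deficient pool 1. The closely related Acaa1a overlapped, at 295.4 and 889.1 in iron-deficient pools against 615.4 and 426.4 in control pools (0.001 ± 0.59, with a sign that turned after median centring). These are near-identical copies, so their values are uncertain, and 2 probe sets that the annotation gives both symbols differed by -0.46 ± 0.43 and -0.06 ± 0.38. Ehhadh, the bifunctional enzyme of the peroxisomal spiral, read 15.5 and 25.2 in iron-deficient pools against 47.3 and 45.1 in control pools. It was a dim gene with separate groups and a difference of -1.22 ± 0.37 (limma unadjusted p = 0.0193, adjusted p = 0.852). The 15.5 lay close to the background of 14.4 in iron-deficient pool 1, and with an offset of 16 the difference was -0.79. At the 60% filter Ehhadh was left out. Hsd17b4, which does the same steps for branched chains (-0.39 ± 0.38, and -0.50 ± 0.40 with separate groups by a dimmer probe set), and Pex11a, a peroxisome division protein (-0.44 ± 0.37), overlapped or tied with a control pool. Cat, catalase, was higher in both pools, at 1870.1 and 1207.6 in iron-deficient pools against 1141.5 and 1145 in control pools (0.39 ± 0.36), and after median centring its groups overlapped. The oxidases Acox2 and Acox3, which start the spiral on branched chains, and the acetyl-CoA thioesterase Acot12 were too dim to be tested. Acox2 and Acot12 were below background in all pools, and Acox3 had signals of 8.7 and 18.1 in the iron-deficient pools, against 22.4 and 18.1 in the control pools.

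**Figure D4:**
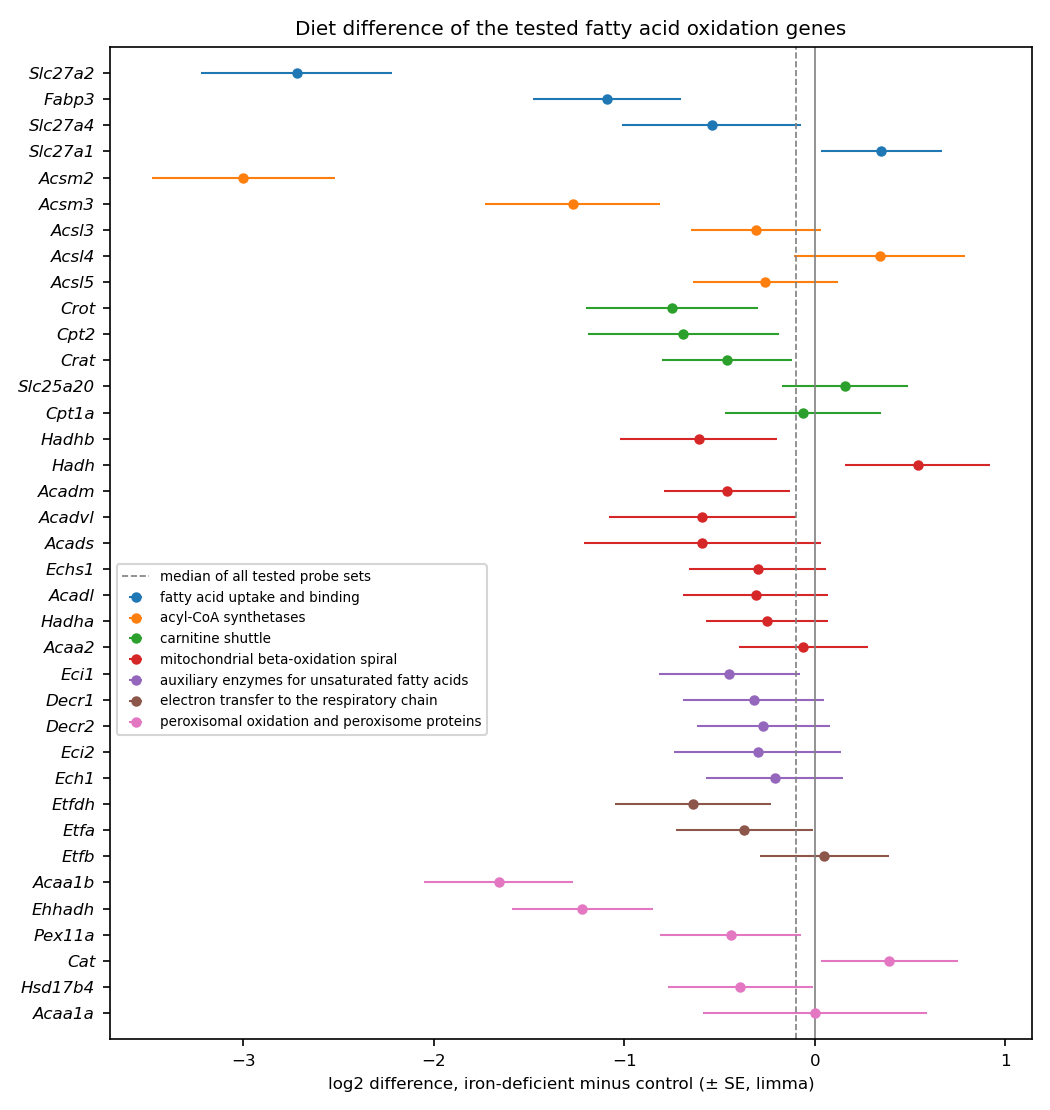
Log2 difference, iron-deficient minus control, with its standard error from limma, for the 37 tested fatty acid oxidation genes, grouped and coloured by role. The dashed line is the median of all tested probe sets (-0.10), and Acsm2, Slc27a2 and Acaa1b lie farthest to its left at -3.00, -2.72 and -1.66.

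Of the members with one of the searched letters before the start, Acadvl (ACGTG), Cat and Etfa (direct repeat, 2 mismatches each, with the matches of Acadvl and Etfa on the opposite strand) had the next smallest p after Acsm2 and Slc27a2. Hadha and Hadhb lie head to head on chromosome 5 with 0 coding genes between them, and their upstream windows share 228 bases. The upstream window of Hadhb, which held none of the letters, is shown with them because both genes lay lower in both iron-deficient pools:
Acadvl, chr11:70015429-70015678, minus strand: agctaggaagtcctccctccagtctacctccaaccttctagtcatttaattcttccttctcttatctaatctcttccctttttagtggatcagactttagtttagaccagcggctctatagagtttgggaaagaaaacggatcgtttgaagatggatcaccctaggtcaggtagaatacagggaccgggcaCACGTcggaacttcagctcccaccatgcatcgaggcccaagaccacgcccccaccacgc
Cat, chr2:103485154-103485403, minus strand: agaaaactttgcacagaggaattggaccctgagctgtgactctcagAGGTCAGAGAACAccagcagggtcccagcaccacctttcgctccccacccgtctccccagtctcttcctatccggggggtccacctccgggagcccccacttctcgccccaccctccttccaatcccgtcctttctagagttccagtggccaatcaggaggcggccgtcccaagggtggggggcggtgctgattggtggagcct
Etfa, chr9:55512244-55512493, minus strand: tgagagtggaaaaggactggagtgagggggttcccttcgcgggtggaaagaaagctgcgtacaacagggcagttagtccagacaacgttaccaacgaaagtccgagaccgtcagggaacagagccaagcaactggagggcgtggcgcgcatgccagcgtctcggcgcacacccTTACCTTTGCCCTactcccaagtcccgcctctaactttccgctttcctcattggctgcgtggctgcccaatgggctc
Hadhb, chr5:30155003-30155252, plus strand: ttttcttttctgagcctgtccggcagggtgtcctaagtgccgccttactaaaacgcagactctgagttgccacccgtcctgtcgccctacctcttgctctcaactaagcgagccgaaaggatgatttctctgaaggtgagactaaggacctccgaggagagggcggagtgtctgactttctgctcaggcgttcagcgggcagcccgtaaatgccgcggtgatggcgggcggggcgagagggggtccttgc

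Other genes of the pathway differed from list to list. These lists were drawn up by function, with earlier results of these data known. Of 21 further oxidation enzymes and carriers, 10 were lower and 1 higher in both iron-deficient pools, with a median of -0.46 (-0.73 in pool 1 and -0.15 in pool 2) and 0 at an unadjusted p under 0.05. The smallest p among them belonged to the acetyl-CoA carboxylase Acacb (-0.70 ± 0.33), the carnitine transporter Slc22a5 (-0.60 ± 0.33) and the peroxisomal lyase Hacl1 (-0.83 ± 0.46), and the iron-dependent phytanoyl-CoA hydroxylase Phyh overlapped (-0.34 ± 0.39). In uptake and activation, 2 of 12 tested genes were lower and 3 higher in both pools, with a median of 0.09, and 1 in each direction had an unadjusted p under 0.05. Cd36, a fatty acid receptor of endothelium and macrophages, read 130.4 and 98.1 in the iron-deficient pools, against 48.9 and 45.4 in the control pools (1.26 ± 0.33, limma unadjusted p = 0.0107). Acss1, a mitochondrial acetyl-CoA synthetase, read 173.1 and 191.5 in iron-deficient pools against 338.6 and 362.5 in control pools (-0.94 ± 0.31), and Acsf2 differed by 0.96 ± 0.54. Both Cd36 and Acss1 had separate groups with little spread between pools.

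Thioesterases, which release free fatty acids from CoA, had 3 of 9 tested genes lower in both pools and 0 higher, with a median of -0.22 and 2 lower at an unadjusted p under 0.05. Acot9 read 207.8 and 447.7 in the iron-deficient pools, against 655.3 and 765.2 in the control pools (-1.22 ± 0.46), Acot8 differed by -0.73 ± 0.42, and Acot4, at background in 1 iron-deficient pool, by -1.21 with that signal set to background. Among 13 peroxisome biogenesis genes 4 were lower and 1 higher in both pools (median -0.32, and 0.05 in pool 2), with the matrix import ATPase Pex6 at 0.80 ± 0.32 and the membrane assembly and import proteins Pex16 at -0.72 ± 0.42 and Pex2 at -0.55 ± 0.36. Of 3 ketone body genes, Bdh1, the hydroxybutyrate dehydrogenase, read 55.9 and 146.8 in iron-deficient pools against 188.9 and 248.5 in control pools (-1.26 ± 0.53), and the thiolase Acat1 and the ketone-using transferase Oxct1 differed by 0.32 ± 0.35 and -0.32 ± 0.35. Fatty acid synthesis had 2 of 8 genes lower in both pools (median -0.15), with malic enzyme Me1 at -0.60 ± 0.32, citrate lyase Acly at 0.43 ± 0.37 and the elongase Elovl6 at -0.35 ± 0.33.

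Transcriptional regulators of the pathway mostly overlapped between diets, with 1 of 13 lower and 2 higher in both pools and a median of -0.10. Hnf4a, a nuclear receptor of proximal tubule and liver, read 990.2 and 1157 in the iron-deficient pools, against 1850.2 and 1968.9 in the control pools (-0.83 ± 0.32, limma unadjusted p = 0.0422). Ppara, the fatty acid-sensing receptor, was dim and overlapped, at 27.2 and 13.5 in iron-deficient pools against 25.9 and 29.6 in control pools (-0.53 ± 0.44). The coactivator Ppargc1a read 500.2 and 170.9 in iron-deficient pools against 279.6 and 234.9 in control pools, with the iron-deficient pools on either side of the controls, and Lpin1 differed by 0.84 ± 0.38. Among PPAR target and lipid droplet genes 2 of 7 were lower and 2 higher in both pools (median -0.11), with the pyruvate dehydrogenase kinase Pdk4 at 868.8 and 411.9 in iron-deficient pools against 343.3 and 263.6 in control pools (0.99 ± 0.46), Angptl4 at 0.45 ± 0.37 and Plin5 at -0.42 ± 0.33.

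Markers of cell types that use this pathway differed between diets to unlike extents. Of 13 tested proximal tubule markers all 13 were lower in both iron-deficient pools, 11 of them at an unadjusted p under 0.05, with a median of -2.84 (-3.23 in pool 1 and -2.01 in pool 2). Their summed signal over 14 genes was 1691.6 and 2936.3 in the iron-deficient pools, against 7491 and 7461.1 in the control pools, and no marker was listed at 0, while Miox and Kap lay at or below background in both iron-deficient pools. Their part in the lower signals of Slc27a2, Acsm2, Acsm3, Acaa1b and Ehhadh was not tested, and Hnf4a belongs to this list too. The summed signal of 9 hepatocyte markers, of which 7 were tested and none lay lower or higher in both pools, was 310.4 in iron-deficient pool 1 and 3108.4 in pool 2, against 1606.7 and 1459.3 in the control pools. This sum was lowest in iron-deficient pool 1 and highest in iron-deficient pool 2. Skeletal muscle markers, beside which Fabp3 can be read, summed over 8 genes to 390.4 and 1790.3 in the iron-deficient pools, against 509.6 and 362.9 in the control pools, with Myod1 and Myog, 2 of 6 tested genes, higher in both pools and 0 lower. The 4 brown adipocyte markers were too dim to be tested, and their sums were 19.8 and 28 in iron-deficient, and 28.4 and 32.3 in control pools. Adrenal cortex markers summed to 196.5 and 140.2 over 7 genes in the iron-deficient pools, against 193.2 and 160.1 in the control pools, with 1 of 4 tested genes lower in both pools. The 6 erythroid markers summed to 2629.5 and 2141.5 in the iron-deficient pools, against 1069.1 and 1194.6 in the control pools, with 3 of 5 tested genes higher and 1 lower in both pools. The part of these cell types in the results was not tested.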

How the data were processed

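RNA of 4 kidney pools was measured on 1 Affymetrix whole-genome expression array each. The deposited values are intensity values on a linear scale, from 0 to 13762.6, with 1 value per probe set and array and a common trimmed mean. RMA is named in the submitters' processing notes, yet the values are neither logarithmic nor of a shared distribution, and the summary software behind them was not given in the sources used here. Groups and pool numbers came from the labels. Sequences and their coordinates are RefSeq's, from GRCm38.p6.

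Zeros (1 to 3 per array) were set to 0.1 and values taken to log2. The 64 control probe sets and the lowest 40% of the other 45037 by mean log2 value (below a signal of 17.3) were left out. For the remaining 27022, limma 3.58.1 was run in R 4.3.3 (lmFit, eBayes, two-sided, Benjamini-Hochberg), with diet as the only term. Residual degrees of freedom were 2, with 3.49 prior ones. Background was the highest of 27 unspiked control probe sets per array (14.4 and 13.3 in the iron-deficient pools, 8.5 and 8.2 in the control pools). The number of arrays limits the precision. The procedure was tested on simulated data.

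The members and lists were chosen with earlier results of these data known. All signals are given for members at an unadjusted p under 0.05 with separate groups and for the 2 members of each role with the smallest p, and other members are named beyond that rule. In other pathway lists, the 3 genes with the smallest p are named, with Ppara, Ppargc1a and Phyh whatever their values. Some genes of these lists are not reported here. The window of Hadhb was added after values were seen. Of the 42 members, 16 had several tested probe sets, and for 5 (Acsl4, Cpt1a, Cpt2, Hadhb and Slc25a20) these differed in sign.

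Tried as alternatives were a filter at 60% or none, centring on the array median or quantile normalization, an offset of 16 before the log, an intensity trend, a block for pool number, leaving out single pools, 1 probe set per gene, and the mean over a gene's probe sets.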

Additional observations from a re-analysis of the deposited data

How the results depend on the processing

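By limma 0 probe sets passed the adjusted threshold (760 lower and 309 higher had an unadjusted p under 0.05), and 201 after median centring, 479 with the pool number as a replicate block, 8 with 1 probe set per gene and 0 to 75 with a pool left out (75 without control pool 1, 31 without control pool 2). After centring, with the block and without either control pool the prior degrees of freedom were infinite, so the limma p-values there rest on a single variance for all probe sets. Members among them were Acsm2 and Slc27a2 after centring, and Acsm2, Slc27a2 and Acaa1b with the block. The labels do not say that a pool number pairs pools across diets, and the deviations of same-numbered pools correlated at 0.36. Members lower in both iron-deficient pools numbered 15, against 7 after median centring, where the share over all tested probe sets was not counted. With a pool left out only the remaining pools were compared, an easier criterion under which these counts cannot fall. Members below then numbered 17 to 31 (23 without control pool 1, 31 without iron-deficient pool 2). The 31 is the count for iron-deficient pool 1 alone, where 52.6% of all tested probe sets lay below both control pools. Without iron-deficient pool 1 the count was 17, that of pool 2 alone, where the share was 40.5%. Members higher in both numbered 3, against 1 after median centring and 3 to 10 with a pool left out (10 without iron-deficient pool 1, 5 without iron-deficient pool 2). Members lower at an unadjusted p under 0.05 numbered 6, and 2 to 21 with a pool left out (2 without control pool 2, 21 without iron-deficient pool 2), and members higher 0, and 0 to 3 (3 without iron-deficient pool 2). With a pool left out, the shares of all tested probe sets at an unadjusted p under 0.05 were not counted. The member counts at that p can therefore not be set against the whole array in those runs. The run without iron-deficient pool 2 rests on iron-deficient pool 1 alone, the pool that differed most from the rest. The median of the members ranged from -0.70 without iron-deficient pool 2 to -0.06 without iron-deficient pool 1, and was negative in every alternative run. Without iron-deficient pool 1 the sign turned for 11 of 37 members (Cpt1a, Slc25a20, Acadl, Acadvl, Acads, Acaa2, Eci2, Decr1, Slc27a4, Acsl4 and Acsl5) and 23 were negative, against 30 with all pools. Decr1 ran from -0.65 to 0.01 with a pool left out. Acsm2 and Slc27a2 kept an unadjusted p under 0.05 in every alternative run, while Acaa1b, Ehhadh, Fabp3 and Acsm3 each missed it in at least 1. With all pools Fabp3 had 0.0676 without a filter and 0.0541 after median centring, and Acsm3 had 0.0657 without a filter and 0.0529 after quantile normalization. Without control pool 2 the unadjusted limma p was 0.0578 for Acaa1b, 0.132 for Ehhadh, 0.201 for Fabp3 and 0.346 for Acsm3, and without control pool 1 it was 0.154 for Ehhadh and 0.182 for Fabp3. Acsm3 had 0.143 when iron-deficient pool 1 was left out and 0.055 when pool 2 was. The causes were not tested.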
